A study of Homo sapiens with 48 samples.

Results

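The genes of the human mitochondrial genome were described across 48 RNA sequencing libraries of uveal melanoma cells. They were chosen by name, as every row of the deposited gene count tables whose symbol begins with MT-, which gave 37 of 58870 genes: 13 protein-coding, 2 rRNA and 22 tRNA genes. Uveal melanoma is a cancer of the pigment cells of the eye, and 92-1, MEL202 and MP41 are established lines, each grown from a single tumour and all labelled wild type. Each line was treated for 4 or 24 h with FHT-1015, an inhibitor of SMARCA4 and SMARCA2, the motor subunits of the BAF chromatin remodelling complex, or with its vehicle DMSO. Line 92-1 also received IDE196, which inhibits protein kinase C, for 4 or 24 h, beside a DMSO set of its own. Each of these 16 groups held 3 libraries labelled as biological replicates. Nothing in the labels says that they came from separate cultures, so the p-values measure the spread between these libraries, which may be partly technical. The doses of both drugs are not given in the sources used here.

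The mitochondrial genome is a small circle, transcribed from both strands by the RNA polymerase POLRMT with the DNA-packing factor TFAM. The long transcripts are cut mostly at the tRNAs that lie between the other genes. Most of the mRNA and rRNA pieces, but not the tRNAs, are then polyadenylated. This completes the stop codon of those mRNAs that end short of one. The proteins are core subunits of respiratory complexes I, III and IV and of the ATP synthase, complex V, and the 2 rRNAs build the mitochondrial ribosome. All other parts of these complexes, and all factors that copy, transcribe and process the mitochondrial genome, are encoded in the nucleus.

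The sequences below show how the genes are packed, which bears on how reads could be assigned to them, and all follow GENCODE 29 on GRCh38. MT-ATP8 and MT-ATP6, both subunits of ATP synthase, overlap by 46 bases, and MT-ND4L and MT-ND4, both subunits of complex I, overlap by 7 bases. The whole of MT-ATP8 (chrM:8366-8572, plus strand) and the last 40 bases of MT-ND4L (chrM:10727-10766, plus strand) are printed with the shared bases in capitals. MT-TP, the proline tRNA (chrM:15956-16023, minus strand), is printed whole because it was the one tRNA gene with enough reads to be tested.
MT-ATP8: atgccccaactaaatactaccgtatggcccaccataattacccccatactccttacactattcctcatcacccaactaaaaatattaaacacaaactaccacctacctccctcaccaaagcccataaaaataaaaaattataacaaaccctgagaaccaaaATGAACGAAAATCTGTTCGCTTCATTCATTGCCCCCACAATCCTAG
MT-ND4L end: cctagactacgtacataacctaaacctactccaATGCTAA
MT-TP: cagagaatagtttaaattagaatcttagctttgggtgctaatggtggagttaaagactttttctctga

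Of the 13 protein-coding genes, 6 end in an incomplete codon in the annotation. The last 24 bases of the genes that the results turn on are printed with the last codon, complete or not, in capitals: MT-ND1 (chrM:4239-4262), MT-ND2 (chrM:5488-5511), MT-CO1 (chrM:7422-7445) and MT-CYB (chrM:15864-15887) on the plus strand, and MT-ND6 (chrM:14149-14172) on the minus strand. The last 24 bases of the rRNA genes MT-RNR1 (chrM:1578-1601) and MT-RNR2 (chrM:3206-3229), both on the plus strand, follow.
MT-ND1 end: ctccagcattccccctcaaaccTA
MT-ND2 end: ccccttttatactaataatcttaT
MT-CO1 end: gaacccgtatacataaaatctAGA
MT-CYB end: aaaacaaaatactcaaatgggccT
MT-ND6 end: attgagattgctcgggggaatAGG
MT-RNR1 end: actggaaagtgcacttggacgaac
MT-RNR2 end: cacacccacccaagaacagggttt
MT-ND1 ended in 2 of 3 bases of a codon, MT-ND2 and MT-CYB in 1, and MT-CO1 and MT-ND6 in a whole codon that is a stop signal in vertebrate mitochondria. MT-ND6 was the 1 protein-coding gene on the minus strand, and its sequence held 35.6% G and 7.05% C, against 6.28% to 16.2% G and at least 29.5% C in the 12 genes on the plus strand.

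Of the 37 genes, 16 passed the filter on low counts: all 13 protein-coding genes, both rRNA genes and MT-TP. Each of these 16 had reads in all 48 libraries, and the lowest single value was 8 reads of MT-ATP8. Of the 22 tRNA genes, which are 59 to 75 bases long, 16 had no read in any library in the unstranded column used here, and the 5 others besides MT-TP held 110 reads together against 105096 reads of MT-TP. In the columns counted by strand, 10 of those 16 genes had reads, and 6 had none there either. Transcripts had been selected by their poly(A) tails, and the counts ignored strand. Reads from a gene and from RNA of the opposite strand therefore cannot be told apart, which touches MT-ND6 and MT-TP most, since both lie opposite the strand that carries most of the genes.

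The libraries held 11394088 to 32317711 reads assigned to genes. The widest 95% Wilson interval of a library's mitochondrial mRNA share was 0.0309 percentage points, which covers counting error only. The 9 melanocyte markers summed to 3007 to 21588 CPM (counts per 1000000 gene reads), and the 19 markers of other cell types to 7.79 to 49.8 CPM, with 0 of the 19 at 0 in all libraries. The 2nd FHT-1015 library of MEL202 at 4 h stood apart with 17592 genes with a read, the fewest of the 48, and the 2nd DMSO library of MP41 at 24 h with the lowest mitochondrial mRNA share, 1.12%.

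In DMSO libraries the subunits of cytochrome c oxidase, complex IV, led the mRNAs. On the scale of RPKM (reads per kilobase of gene and per 1000000 gene reads), MT-CO3 stood at a mean of 12697 in the 6 DMSO libraries of the FHT-1015 set of 92-1 (range 11263 to 13490). The level of MT-CO2 was 11632 RPKM (10394 to 12633) and that of MT-CO1 11036 RPKM (10011 to 11619). These 3 levels overlapped each other, and all lay above MT-ATP6, the ATP synthase subunit, at 6354 RPKM (5610 to 7061).

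The complex I subunits came next in 92-1. MT-ND3 had a level of 4577 RPKM (4057 to 4959) and MT-ND4 one of 4290 RPKM (3892 to 4585), and their ranges overlapped. MT-ND2 at 3607 RPKM (3450 to 3735) and MT-ND1 at 3372 RPKM (3227 to 3519) also overlapped, and lay above MT-CYB, the complex III subunit, at 2832 RPKM (2482 to 2994). The lowest complex I subunits were MT-ND6 at 1599 RPKM, MT-ND5 at 1583 RPKM and MT-ND4L at 1415 RPKM, and these 3 overlapped. MT-ATP8 had the lowest level, 33.9 RPKM, although it shares its transcript with MT-ATP6. Reads that touch the 46 shared bases belong to both genes, so the level of MT-ATP8 is uncertain.

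MT-RNR2, the large-subunit rRNA, ranked 5 of 16 by its mean in 92-1 (6256 RPKM, range 5527 to 6934) and also in MP41 (2394 RPKM, 774 to 3364). In MEL202 DMSO libraries it had the highest mean of all members, 8218 RPKM (5299 to 10354), ahead of MT-CO3 at 6882 RPKM. MT-RNR1, the small-subunit rRNA, stood at 1072 RPKM in 92-1, 1826 RPKM in MEL202 and 965 RPKM in MP41, below MT-RNR2 in each line. Among the mRNAs of MP41, MT-CO1 led at 4659 RPKM, with MT-CO2 at 4258 RPKM and MT-CO3 at 3862 RPKM. The complex IV mRNAs were thus the highest mRNAs in all 3 lines.

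**Figure D1:**
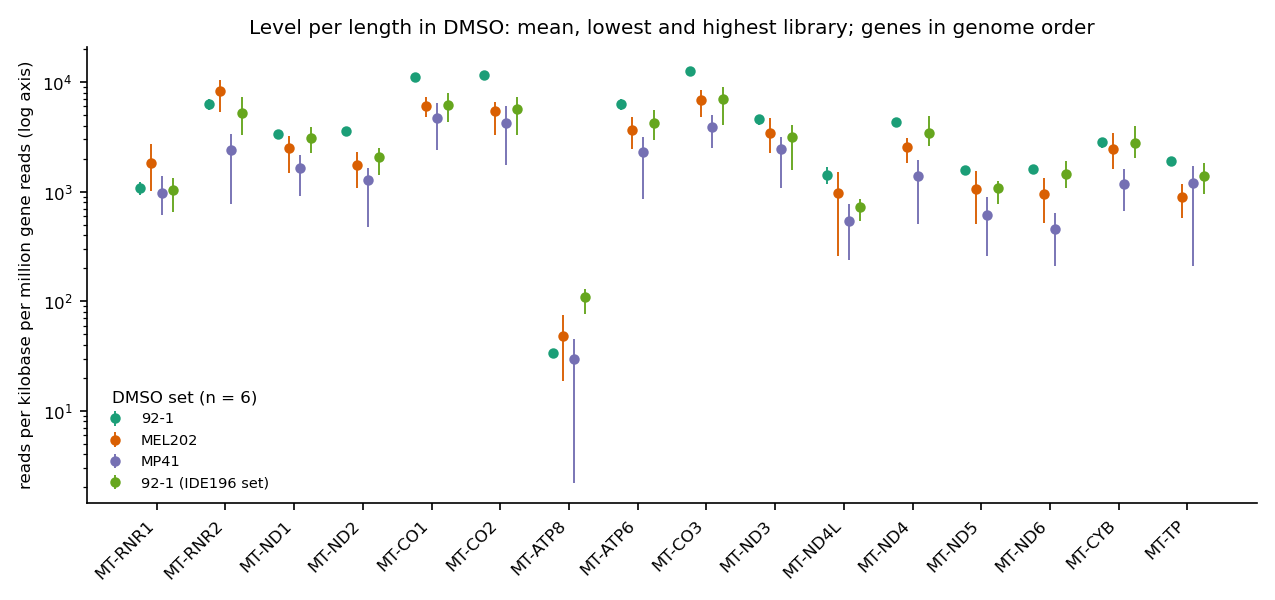
Level of each of the 16 genes in DMSO libraries, in RPKM on a log axis; points are means of 6 libraries (4 h and 24 h pooled) and bars run from the lowest to the highest library. MT-ATP8 lies far below the other genes in every set, and MP41 is lowest for most mRNAs.

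In the FHT-1015 set the 13 mRNAs together took a larger share of gene reads in 92-1 than in the other lines. In the 6 DMSO libraries of each line in the FHT-1015 set, 4 h and 24 h pooled, the share was 6.11% ± 0.327 (SD, n = 6) in 92-1, 3.55% ± 0.677 (SD, n = 6) in MEL202 and 2.32% ± 0.685 (SD, n = 6) in MP41. MEL202 was below 92-1 with no overlap (log2 ratio -0.78, two-sided exact permutation p = 0.00216, 0.00289 after Benjamini-Hochberg adjustment over 4 comparisons). MP41 was also below 92-1 with no overlap (log2 ratio -1.40, exact permutation p = 0.00216, adjusted p = 0.00289). MP41 and MEL202 overlapped, with a log2 ratio of -0.62 (exact permutation p = 0.0108, adjusted p = 0.0108).

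The rRNA share did not follow the same order. It was 1.46% ± 0.339 (SD, n = 6) in MEL202, 1.08% ± 0.0792 (SD, n = 6) in 92-1 and 0.465% ± 0.149 (SD, n = 6) in MP41. MEL202, below 92-1 in mRNA, was above it in rRNA (log2 ratio 0.43, exact permutation p = 0.0260, adjusted p = 0.0346), with overlapping libraries. MP41 was below both other lines with no overlap (exact permutation p = 0.00216 for each, adjusted p = 0.00433).

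The 2 DMSO sets of the same line 92-1 also differed. The set made beside IDE196 had an mRNA share of 3.88% ± 0.832 (SD, n = 6), below every library of the set made beside FHT-1015 (log2 ratio -0.65, exact permutation p = 0.00216, adjusted p = 0.00289). Its libraries, at 2.74% to 5.04%, overlapped with the DMSO libraries of MEL202 (2.40% to 4.03%) and MP41 (1.12% to 3.02%). In the mRNA shares above, a difference between lines and one between batches of libraries therefore cannot be told apart. The rRNA shares of the sets overlapped (0.905% against 1.08%, exact permutation p = 0.149). Within the mitochondrial mRNA, 5 of 13 genes took a higher and 3 a lower share in the IDE196 set with no overlap between the sets. Among the higher, MT-CYB held 8.11% against 5.29% and MT-ND6 2.00% against 1.38%. With 6 libraries against 6, a gene without any difference has a probability of 0.00216 of not overlapping. The level of MT-ATP8 in the IDE196 set was 108 RPKM against 33.9 RPKM. The labels do not say how the sets differ in culture or preparation, so each drug is compared below with its own DMSO set.

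At 4 h no member passed the test in any comparison. The test was edgeR's quasi-likelihood test with Benjamini-Hochberg adjustment over all genes tested and a threshold of 0.05. In 92-1 with FHT-1015, 0 of 16 members were called, where 29.5% of all genes were, 2 members had an unadjusted p under 0.05, DESeq2 called 0, and limma-voom with quality weights called 4 (limma-voom was run only with these weights, which count less variable libraries more). In MEL202, 0 of 16 were called (0.679% of all genes), 1 had an unadjusted p under 0.05, and DESeq2 and limma-voom called 0. In MP41, 0 of 16 were called (0.225% of all genes), 0 had an unadjusted p under 0.05, and both other tools called 0. With IDE196 in 92-1, 0 of 16 were called against 16.2% of all genes, 0 had an unadjusted p under 0.05, and both other tools called 0.

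The mRNA shares at 4 h lay close to those of DMSO. In 92-1 they were 6.21%, 6.56% and 7.51% with FHT-1015 and 6.42%, 5.54% and 5.95% with DMSO (exact permutation p = 0.2). In MEL202 they were 3.24%, 4.82% and 3.01% against 3.97%, 4.03% and 3.04% (exact permutation p = 1), and in MP41 2.40%, 3.14% and 2.00% against 2.37%, 3.02% and 2.05% (exact permutation p = 0.9). With IDE196 they were 3.65%, 4.23% and 5.44% against 2.74%, 4.06% and 5.04% (exact permutation p = 0.6). The groups overlapped in all 4 comparisons. The rRNA share in MEL202 was the exception at 4 h, with a mean of 1.15% after FHT-1015 against 1.57% after DMSO and no overlap (log2 ratio -0.44, exact permutation p = 0.1). For 3 libraries against 3, 0.1 is the smallest p this test can give. Without the 2nd DMSO library of 4 h the log2 ratio of the rRNA share in MEL202 was -0.29.

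At 24 h the mRNA share was highest with the drug in each of the 4 comparisons by its mean, and in 2 of them the groups did not overlap. In 92-1 the FHT-1015 libraries held 7.10%, 8.12% and 8.30% and the DMSO libraries 6.11%, 6.29% and 6.34%. All 3 drug libraries were above all 3 DMSO libraries, with means of 7.84% ± 0.647 and 6.25% ± 0.124 (SD, n = 3 each, log2 ratio 0.33, exact permutation p = 0.1). With IDE196 in 92-1 the shares were 5.32%, 6.08% and 5.41% against 4.46%, 3.78% and 3.21%. These groups did not overlap either, with means of 5.60% ± 0.416 and 3.82% ± 0.628 (SD, n = 3 each, log2 ratio 0.55, exact permutation p = 0.1).

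In the other lines the groups overlapped at 24 h. In MP41 the FHT-1015 libraries held 4.58%, 4.27% and 2.90% and the DMSO libraries 2.91%, 1.12% and 2.42%. The lowest drug library thus stood just under the highest DMSO library, and the means were 3.92% ± 0.898 and 2.15% ± 0.922 (SD, n = 3 each, log2 ratio 0.86, exact permutation p = 0.2). Without the DMSO library of 1.12% the log2 ratio in MP41 was 0.56. In MEL202 the shares were 5.62%, 3.88% and 3.92% against 3.87%, 3.99% and 2.40%, with a log2 ratio of 0.39 and an exact permutation p of 0.4. Without the 3rd DMSO library, at 2.40%, that log2 ratio was 0.19. In bulk RNA a higher share with more mitochondrial RNA per cell, one with less nuclear RNA per cell, and one with other proportions of cells cannot be told apart.

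**Figure D2:**
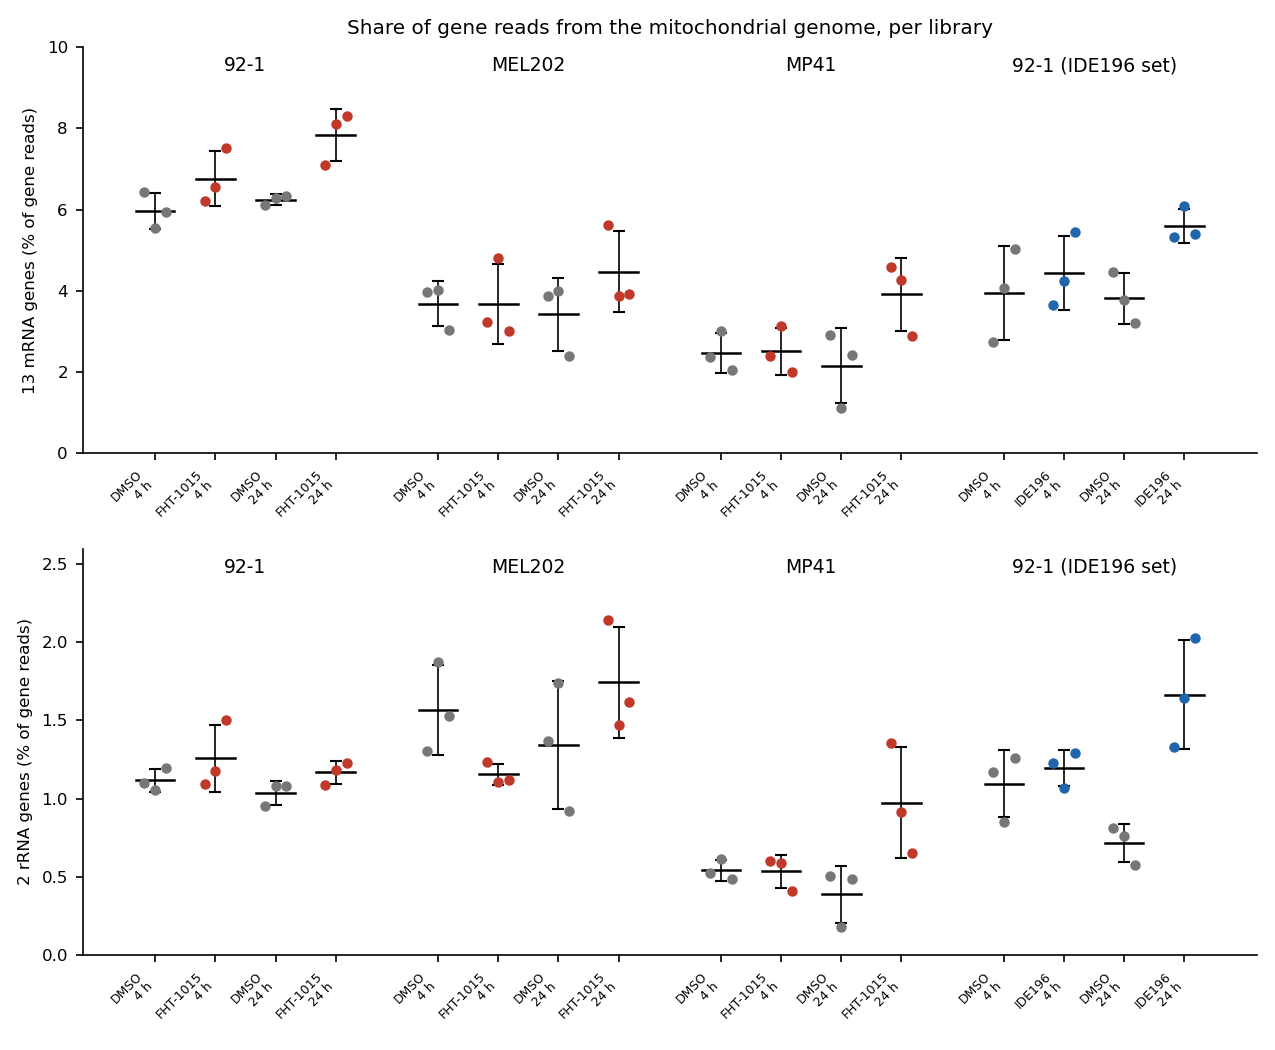
Share of gene reads, in percent, taken by the mitochondrial genes in each of the 48 libraries, by line, drug and time. The 24 h libraries of 92-1 with FHT-1015 (7.10% to 8.30% for the mRNAs) and with IDE196 (5.32% to 6.08%) lie above their own DMSO libraries, while those of MEL202 and MP41 overlap with theirs.

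The rRNA share at 24 h was higher with no overlap in 3 comparisons. In MP41 it was 0.973% ± 0.355 after FHT-1015 and 0.389% ± 0.182 after DMSO (SD, n = 3 each, 2.50-fold, exact permutation p = 0.1). After IDE196 it was 1.67% ± 0.349 against 0.716% ± 0.124 (SD, n = 3 each, 2.33-fold, exact permutation p = 0.1). In 92-1 with FHT-1015 the means were closer, 1.17% and 1.04% (log2 ratio 0.17, exact permutation p = 0.1), and in MEL202 the groups overlapped (1.74% and 1.34%, log2 ratio 0.38, exact permutation p = 0.4). Without the 1st DMSO library of 24 h the log2 ratio in 92-1 was 0.11, and without the 3rd one in MEL202 it was 0.17.

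Other values of the same 24 h libraries are given beside these shares. Reads mapping to several places made up 3.40% to 3.55% of mapped reads in the 24 h FHT-1015 libraries of 92-1 and 2.97% to 3.18% in their DMSO libraries. With IDE196 they made up 4.13% to 5.39% against 3.37% to 3.58%. Unmapped reads made up 1.99% to 2.37% with IDE196 against 1.42% to 1.49%, and 1.19% to 1.28% against 0.833% to 1.16% in 92-1 with FHT-1015, both with no overlap. In MP41 reads mapping to several places made up 3.51% to 3.97% with FHT-1015 against 3.91% to 4.60%, with the lower mean in the drug group, and in MEL202 2.96% to 4.08% against 2.85% to 3.49%, both with overlap. In MP41 the 1st and 2nd FHT-1015 libraries of 24 h had 3.75% and 3.83% unmapped, the highest of the 48, the 3rd had 1.27%, and the DMSO libraries 1.13% to 1.60%. In MEL202 they made up 1.25% to 2.68% against 0.974% to 1.33%. The summed level of the 9 melanocyte markers had a mean of 5223 CPM after FHT-1015 and 20471 CPM after DMSO in 92-1 at 24 h, 3176 against 9470 CPM in MEL202, 6358 against 13617 CPM in MP41, and 18779 against 17149 CPM with IDE196. The sum over the 19 markers of other cell types was 18.0 against 10.5 CPM in 92-1, 43.8 against 8.92 CPM in MEL202, 40.8 against 40.0 CPM in MP41 and 33.3 against 21.0 CPM with IDE196. The part of these values in the mitochondrial results was not tested.

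Gene by gene, FHT-1015 at 24 h in 92-1 gave 6 higher and 1 lower of the 16 members, where 60.6% of all genes tested were called, 29.2% higher and 31.4% lower. The count of 7 of 16 is below that background, so the number itself sets the members apart in no way. The genes called higher belonged to several complexes: 2 of 3 mRNAs of complex IV, the mRNA of complex III, 1 of 2 of complex V, 1 of 7 of complex I, and MT-TP. The groups did not overlap for 10 members higher and 1 lower, where 31.8% of all genes were higher and 33.7% lower with no overlap. The median log2 fold change of the 13 mRNAs was 0.20, against -0.00 over all genes. Levels below are CPM after TMM scaling (a scaling of library sizes by edgeR), and fold changes are drug over DMSO.

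MT-RNR1 was the 1 member that fell in 92-1. It stood at 619, 660 and 702 CPM after FHT-1015 and at 922, 999 and 1102 CPM after DMSO. The drug libraries all lay below the DMSO libraries (log2 fold change -0.61, SE 0.13, edgeR adjusted p = 0.000806). MT-RNR2 stood at 10123, 10578 and 10975 CPM against 8965, 9657 and 9783 CPM, again with no overlap, and did not pass (log2 fold change 0.16, edgeR adjusted p = 0.224).

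Among the mRNAs of 92-1, MT-CYB, the cytochrome b of complex III, had the largest log2 fold change. It stood at 4467, 4833 and 4714 CPM after FHT-1015 and at 3431, 3336 and 3445 CPM after DMSO (log2 fold change 0.46, SE 0.10, edgeR adjusted p = 0.000774). MT-CO1, the catalytic subunit of complex IV, stood at 20334, 22754 and 23373 CPM against 17677, 17251 and 18066 CPM (log2 fold change 0.33, SE 0.10, edgeR adjusted p = 0.0095). In both genes the groups did not overlap. MT-CO3 (log2 fold change 0.26), MT-ATP6 (0.30) and MT-ND4 (0.26) also rose, with edgeR adjusted p of 0.0224, 0.0276 and 0.0369. Of the 12 fits with 1 library left out, MT-ND4 lost its call in 8: each 24 h DMSO library, the 2nd and 3rd FHT-1015 libraries of 24 h, and 3 libraries of 4 h (the 2nd and 3rd DMSO and the 2nd FHT-1015). Those of MT-CO3 and MT-ATP6 were lost in 4 of 12, without the 2nd or the 3rd library of either 24 h group. The complex I subunits MT-ND2 and MT-ND5 had log2 fold changes of -0.00 and -0.01.

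MT-TP, the tRNA on the minus strand, rose in the same libraries. It stood at 190, 197 and 220 CPM after FHT-1015 and at 134, 126 and 135 CPM after DMSO, with no overlap (log2 fold change 0.62, SE 0.10, edgeR adjusted p = 9.11e-05). MT-ND6, the mRNA on the same strand, did not pass. All 7 calls in 92-1 were lost when the 48 libraries of the series shared 1 fit, and 4 calls were made without the 2nd or the 3rd DMSO library of 24 h, and likewise without the 2nd or the 3rd FHT-1015 library.

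In MP41, FHT-1015 at 24 h gave 7 higher and 0 lower of 16, where 36.1% of all genes were called, 17.4% higher and 18.7% lower. The calls were MT-RNR2, MT-TP, 3 of 7 mRNAs of complex I, the mRNA of complex III and 1 of 3 of complex IV, and neither mRNA of complex V. The median log2 fold change of the 13 mRNAs was 0.95, against 0.07 over all genes, and all 13 were above 0. The groups did not overlap in 4 of the 16 members, all higher, where 21.8% of all genes were higher with no overlap.

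MT-RNR2 had one of the largest changes in MP41. It stood at 12114, 8042 and 5527 CPM after FHT-1015 and at 3920, 1203 and 3482 CPM after DMSO, with no overlap (log2 fold change 1.58, SE 0.37, edgeR adjusted p = 0.00488). MT-RNR1 had a log2 fold change of 0.25 and did not pass (edgeR adjusted p = 0.566). The 2nd DMSO library was the lowest for MT-RNR2, as it was for the mRNAs.

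Among the mRNAs of MP41, MT-ND6 stood at 538, 586 and 314 CPM after FHT-1015 and at 296, 110 and 190 CPM after DMSO. The groups did not overlap (log2 fold change 1.27, SE 0.34, edgeR adjusted p = 0.0105). MT-ND4, a core subunit of complex I, stood at 4410, 4197 and 2491 CPM against 2483, 702 and 1726 CPM, apart by a narrow gap (log2 fold change 1.18, edgeR adjusted p = 0.0257). MT-CO1 at 16483, 15705 and 9220 CPM against 9227, 3653 and 6510 CPM overlapped in 1 library (log2 fold change 1.09, edgeR adjusted p = 0.0198). MT-ND5 (log2 fold change 1.22, edgeR adjusted p = 0.0303) and MT-CYB (1.01, edgeR adjusted p = 0.0335) rose with overlapping groups. Both calls were lost without the 2nd DMSO library of 24 h, without the 1st or the 2nd FHT-1015 library of 24 h, with limma-voom, and with the compared libraries fitted alone. The log2 fold changes in MP41 were lowest with limma-voom and quality weights, at 0.22 for MT-ND5, 0.29 for MT-CYB, 0.45 for MT-CO1, 0.46 for MT-ND4, 0.58 for MT-ND6, 0.90 for MT-RNR2 and 0.91 for MT-TP. The calls of MT-CO1 and MT-ND4 were lost in the same settings except without that DMSO library. MT-ATP8 had a log2 fold change of 1.47 and did not pass (edgeR adjusted p = 0.0952).

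MT-TP in MP41 stood at 237, 174 and 140 CPM after FHT-1015 and at 91.3, 14.2 and 73.5 CPM after DMSO, with no overlap (log2 fold change 1.62, edgeR adjusted p = 0.0128). That call was lost without the 1st FHT-1015 library of 24 h and with the compared libraries fitted alone. Without the DMSO library of low mitochondrial share, 5 of the 16 members were called in MP41, and without the 1st or the 2nd FHT-1015 library of 24 h, those with the most unmapped reads, 2 or 3 were. MT-RNR2 and MT-ND6 were called in each of the 22 alternative fits run, with log2 fold changes of 0.90 to 1.87 and 0.58 to 1.67.

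In MEL202, FHT-1015 at 24 h gave 0 calls of 16, where 18.8% of all genes were called. By edgeR 1 member had an unadjusted p under 0.05, DESeq2 called 0, and limma-voom with quality weights called 7. Without the 4 h FHT-1015 library that stood apart, edgeR called 1. MT-CO1 was the 1 member whose groups did not overlap, where 26.9% of all genes were higher with no overlap. It stood at 18964, 11740 and 13707 CPM after FHT-1015 and at 9358, 11177 and 7280 CPM after DMSO (log2 fold change 0.68, SE 0.26, edgeR adjusted p = 0.0895). The median log2 fold change of the 13 mRNAs was 0.04.

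IDE196 at 24 h in 92-1 gave 9 higher and 0 lower of 16, where 58.1% of all genes were called, 28.7% higher and 29.4% lower. The calls were MT-RNR2, MT-TP, 3 of 7 mRNAs of complex I, the mRNA of complex III, 1 of 3 of complex IV and 2 of 2 of complex V. The median log2 fold change of the 13 mRNAs was 0.52, against 0.03 over all genes. The groups did not overlap in 11 members, all higher, where 32.6% of all genes were higher with no overlap.

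MT-RNR2 had the smallest p of the members with IDE196. It stood at 12113, 15199 and 18426 CPM after the drug and at 7100, 6864 and 5027 CPM after DMSO. Every drug library lay well above every DMSO library (log2 fold change 1.27, SE 0.17, edgeR adjusted p = 7.26e-06). MT-RNR1 beside it had a log2 fold change of 0.11 (edgeR adjusted p = 0.582).

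MT-CYB stood at 4888, 5714 and 5424 CPM after IDE196 and at 3337, 3071 and 2450 CPM after DMSO (log2 fold change 0.86, SE 0.20, edgeR adjusted p = 0.00142). MT-ND6 stood at 973, 1164 and 1590 CPM against 846, 744 and 554 CPM (log2 fold change 0.80, SE 0.19, edgeR adjusted p = 0.00137). MT-CO1 stood at 13419, 15599 and 14210 CPM against 11106, 9838 and 7867 CPM (log2 fold change 0.59, edgeR adjusted p = 0.0130). None of these 3 genes overlapped between groups. MT-ND5 (log2 fold change 0.61), MT-ND4L (0.56) and MT-ATP6 (0.52) rose too, and MT-ND2 had a log2 fold change of 0.01 (edgeR adjusted p = 0.960). The call of MT-ATP6 was lost without the 5th or 6th DMSO or the 2nd or 3rd IDE196 library of 24 h, and with DESeq2 or all 48 libraries. Without the 6th DMSO library MT-CO1 and MT-ND4L were lost too, as was MT-CO1 without the 2nd and MT-ND4L without the 3rd IDE196 library. With all 48 libraries in 1 fit the calls of MT-ND4L, MT-ND5, MT-ATP8 and MT-TP were lost as well.

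The shortest mRNA, MT-ATP8, stood at 42.8, 31.7 and 33.9 CPM after IDE196 and at 27.3, 16.1 and 20.9 CPM after DMSO (log2 fold change 0.75, edgeR adjusted p = 0.00398). MT-TP rose with a log2 fold change of 0.73 (edgeR adjusted p = 0.00226). MT-RNR2, MT-CYB and MT-ND6 were called in each of the 21 alternative fits run for IDE196 at 24 h.

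**Figure D3:**
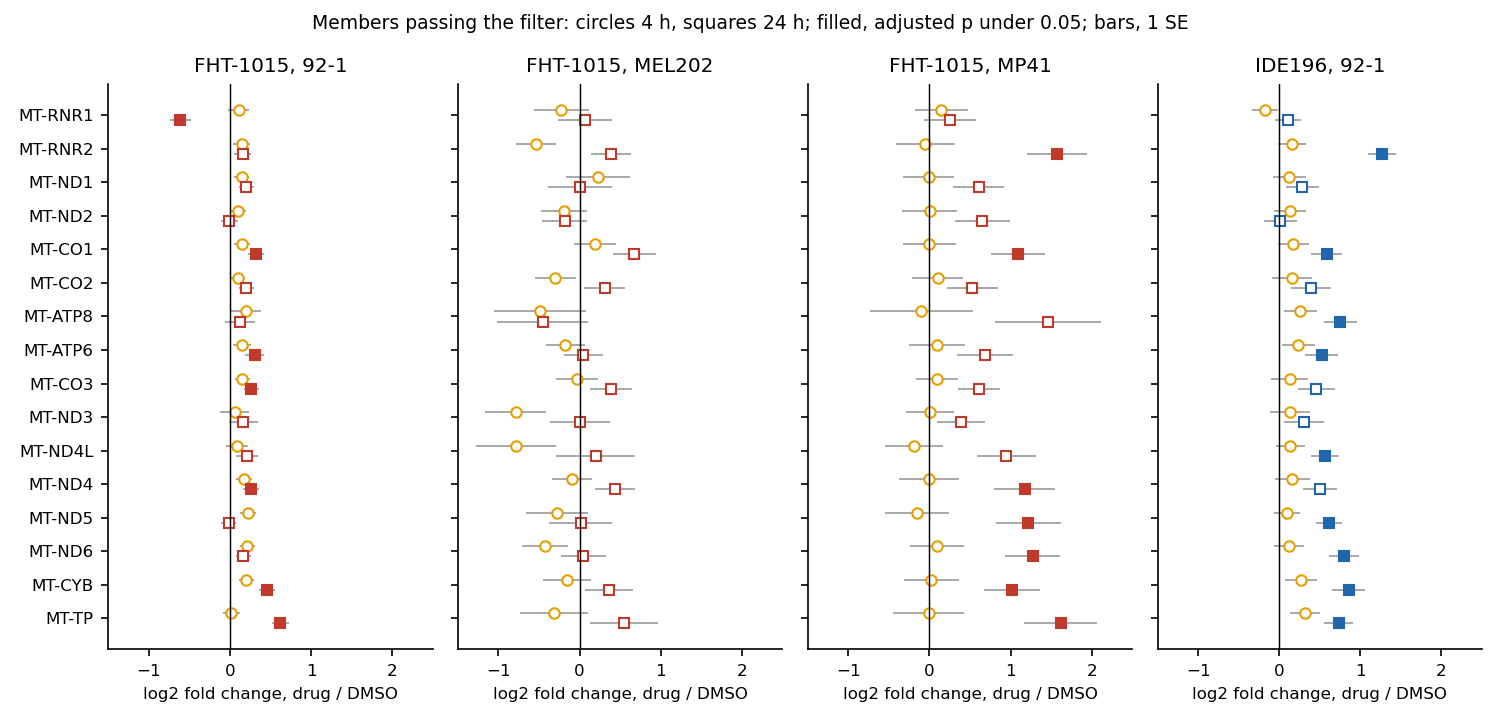
Log2 fold change of each of the 16 genes with 1 SE in the 4 comparisons; circles are 4 h, squares 24 h, and filled symbols passed edgeR's test with an adjusted p under 0.05. No circle is filled, and the filled squares are 7 in 92-1 with FHT-1015, 0 in MEL202, 7 in MP41 and 9 with IDE196.

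The effects at 24 h and 4 h were compared directly in the same fits. In 92-1 with FHT-1015, 2 of 16 members differed (45.5% of all genes did): MT-TP was higher at 24 h by 0.60 on the log2 scale (SE 0.15, edgeR adjusted p = 0.00347) and MT-RNR1 had a difference of -0.72 (SE 0.18, edgeR adjusted p = 0.00470). Both of these calls were lost with all 48 libraries in 1 fit (edgeR adjusted p = 0.468 and 0.207). In MP41 1 of 16 differed (18.6% of all genes), MT-RNR2 with 1.63 (edgeR adjusted p = 0.0425), a call lost when any 1 of 8 libraries was left out: the 6 of 4 h and the 1st and 2nd FHT-1015 libraries of 24 h. With IDE196 1 of 16 differed (30.7% of all genes), again MT-RNR2, with 1.11 (SE 0.24, edgeR adjusted p = 0.00206). In MEL202 0 of 16 differed (6.89% of all genes), 1 had an unadjusted p under 0.05 by edgeR, DESeq2 called 0 and limma-voom called 1.

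Between the 3 lines the FHT-1015 effect at 24 h differed for 1 of 16 members, MT-RNR2 (edgeR adjusted p = 0.0375), where 12% of all genes differed. The call was lost when any 1 of 12 libraries of 24 h was left out: all 6 of 92-1, the 1st DMSO and the 2nd and 3rd FHT-1015 libraries of MEL202, and the 2nd DMSO and the 1st and 2nd FHT-1015 libraries of MP41. At 4 h the effect differed for 0 of 16 by edgeR, DESeq2 and limma-voom, with 0 at an unadjusted p under 0.05 by edgeR, against 1.38% of all genes. The calls in 92-1 and MP41 and the lack of calls in MEL202 are therefore no evidence of a difference between lines for the other 15 genes.

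Between the drugs in 92-1, the effect at 24 h differed for 4 of 16 members, all higher with IDE196, where 33% of all genes differed and 17.1% were higher. The difference was 1.11 on the log2 scale for MT-RNR2 (edgeR adjusted p = 0.000199), 0.72 for MT-RNR1 (edgeR adjusted p = 0.0135), 0.63 for MT-ND5 (edgeR adjusted p = 0.0141) and 0.63 for MT-ND6 (edgeR adjusted p = 0.0301). Without the 6th DMSO library of 24 h 1 of 16 differed, and without the 3rd IDE196 library of 24 h 2 did. At 4 h 0 of 16 differed by edgeR, DESeq2 and limma-voom, against 24.6% of all genes by edgeR, with 0 at an unadjusted p under 0.05. The drugs act on different targets and were compared through their own DMSO sets, and their doses are not known here.

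The balance of the 2 rRNAs was higher with the drug at 24 h in all 4 comparisons, with no overlap. It is given as reads of MT-RNR2 per read of MT-RNR1 within a library, a measure chosen after the values were seen. In 92-1 it was 16.4, 16.0 and 15.6 after FHT-1015 and 9.73, 9.66 and 8.88 after DMSO. In MEL202 it was 10.7, 10.4 and 10.9 against 8.63, 8.55 and 8.62, and in MP41 6.92, 7.92 and 6.95 against 3.50, 2.09 and 2.70. With IDE196 it was 15.0, 16.2 and 17.0 against 6.43, 7.63 and 8.19. All 12 drug libraries lay above the DMSO libraries of their own set.

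The log2 ratio of drug over DMSO at 24 h was 0.76 in 92-1, 0.31 in MEL202 and 1.39 in MP41 with FHT-1015, and 1.12 with IDE196 (exact permutation p = 0.1 in each, the smallest that 3 against 3 allows). At 4 h the ratio overlapped with DMSO in all lines with FHT-1015. With IDE196 at 4 h it was already apart, with a mean of 11.0 against 8.68 (log2 ratio 0.34, exact permutation p = 0.1). In the 4 h FHT-1015 library of MEL202 with the fewest genes it was 2.71, where the highest library of the group had 8.58. In the DMSO libraries of the FHT-1015 set the ratio also differed by line, with means of 9.56 in 92-1, 7.58 in MEL202 and 4.10 in MP41 over 6 libraries each, and no overlap between any pair (exact permutation p = 0.00216 each, adjusted p = 0.00289). These means pool both times, and the DMSO ratio itself differed by time with no overlap in MP41, at 5.06 to 5.68 at 4 h and 2.09 to 3.50 at 24 h, and in MEL202, at 6.18 to 7.24 and 8.55 to 8.63. The log2 ratio of 1.39 in MP41 is thus set against the lower DMSO level of 24 h. The drug libraries of 24 h, at 6.92 to 7.92, also lay above the DMSO libraries of 4 h. The DMSO libraries made beside IDE196, also of 92-1, had a mean of 8.05 (6.43 to 9.69), lower than the 9.56 of the other 92-1 set (exact permutation p = 0.0108, adjusted p = 0.0108) and overlapping with both that set and MEL202 (6.18 to 8.63).

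The 2 rRNAs were also tested singly at 24 h. In 92-1 with FHT-1015 MT-RNR1 fell (log2 fold change -0.61) and MT-RNR2 had 0.16. In MP41 and with IDE196 MT-RNR2 rose (1.58 and 1.27), and MT-RNR1 had 0.25 and 0.11. Between lines, the effect on MT-RNR1 did not pass the test of the difference, and between the drugs in 92-1 it did, as given above. In MEL202 neither rRNA passed, with a log2 fold change of 0.38 for MT-RNR2 (edgeR adjusted p = 0.325). Since the libraries were selected for poly(A) tails, the counts of both rRNAs hold the molecules that this selection retained. As a value that bears on that selection, the summed level of 74 RNAs without a long poly(A) tail, most of them replication-dependent histone mRNAs, was taken over the whole list. At 24 h it was 1429 to 1633 CPM after FHT-1015 and 1113 to 1667 CPM after DMSO in 92-1, and 800 to 2044 against 895 to 2208 CPM in MP41. With IDE196 it was 671 to 805 against 494 to 742 CPM. These groups overlapped, while in MEL202 the sum was 897 to 1242 CPM against 535 to 729 CPM, with no overlap. Gene by gene, among those of the 74 that passed the filter on low counts, 21 of 26 rose and 2 fell in 92-1 with FHT-1015 (median log2 fold change 2.52, where 29.2% of all genes rose) and 13 of 32 rose and 0 fell in MEL202 (1.42, 8.69%). In MP41 18 of 33 rose and 1 fell (0.83, 17.4%), and with IDE196 15 of 27 rose and 2 fell (1.18, 28.7%). The filter can pass a gene through the drug or the DMSO group alone, and such a gene had to differ. These counts therefore lean towards differences in either direction, while a few abundant RNAs can carry the sums. Their part in the rRNA counts was not tested.

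**Figure D4:**
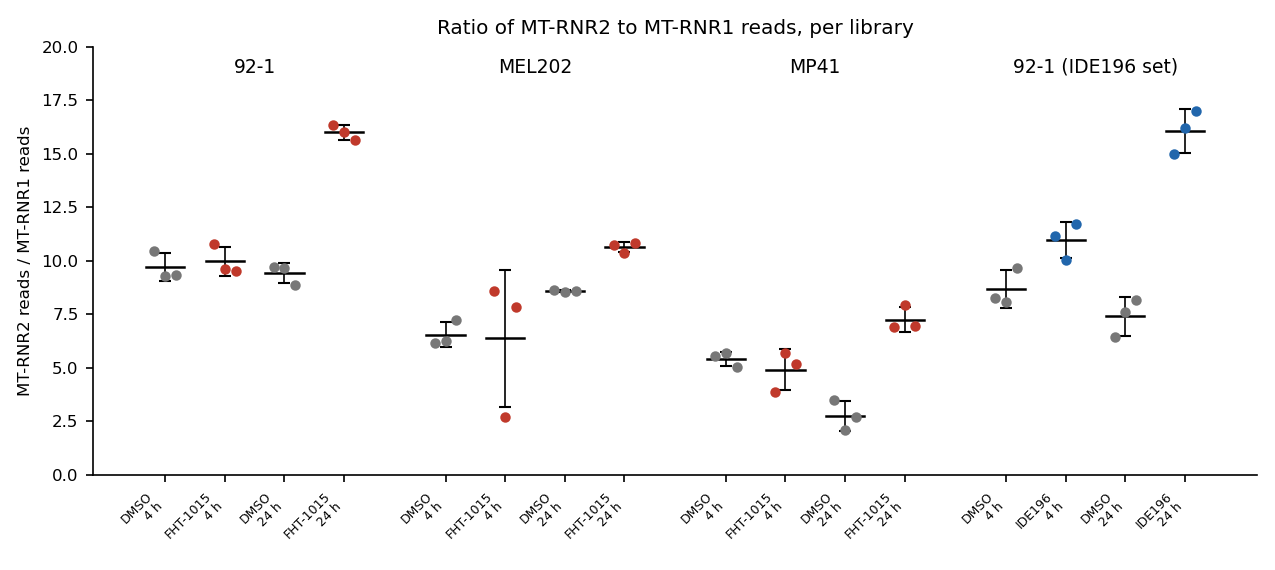
Reads of MT-RNR2 per read of MT-RNR1 in each library, by line, drug and time. At 24 h the drug libraries lie above their own DMSO libraries in all 4 comparisons, at 15.6 to 16.4 against 8.88 to 9.73 in 92-1 with FHT-1015 and at 15.0 to 17.0 against 6.43 to 8.19 with IDE196.

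Within the mitochondrial mRNA itself the shares of single genes at 24 h were mostly close to those of DMSO. The shares of the genes named here were not planned in advance. The share of MT-CO1 was higher with no overlap in all 4 comparisons: 29.4% against 28.0% in 92-1, 33.9% against 27.8% in MEL202 and 35.0% against 30.5% in MP41 with FHT-1015, and 26.5% against 25.1% with IDE196 (means of 3 libraries each). The share of MT-ND2 was lower with no overlap in 3 of the 4: 5.01% against 5.99% in 92-1, 3.79% against 5.40% in MEL202, and 3.98% against 5.56% with IDE196. In MP41 it was 4.59% against 5.18%, with overlap.

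MT-CYB took a larger share with no overlap in 92-1 with both drugs, 6.21% against 5.39% with FHT-1015 and 9.81% against 7.72% with IDE196. In MEL202 (7.41% and 7.47%) and MP41 (6.55% and 6.17%) its share overlapped with DMSO. MT-ND1, the complex I subunit next to MT-RNR2, took a smaller share in MEL202 (5.13% against 6.50%) and with IDE196 (6.35% against 7.39%), both with no overlap. Of the 13 mRNAs, the share did not overlap for 3 higher and 3 lower in 92-1, 2 and 2 in MEL202, 3 and 1 in MP41, and 2 and 2 with IDE196. With 3 libraries against 3, a gene without any difference has a probability of 0.1 of not overlapping. A share of mitochondrial mRNA exists for these 13 genes only, so no share over all genes stands beside the counts. These shares sum to 100% in a library, so they depend on each other, and the part of this in single shares was not tested.

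**Figure D5:**
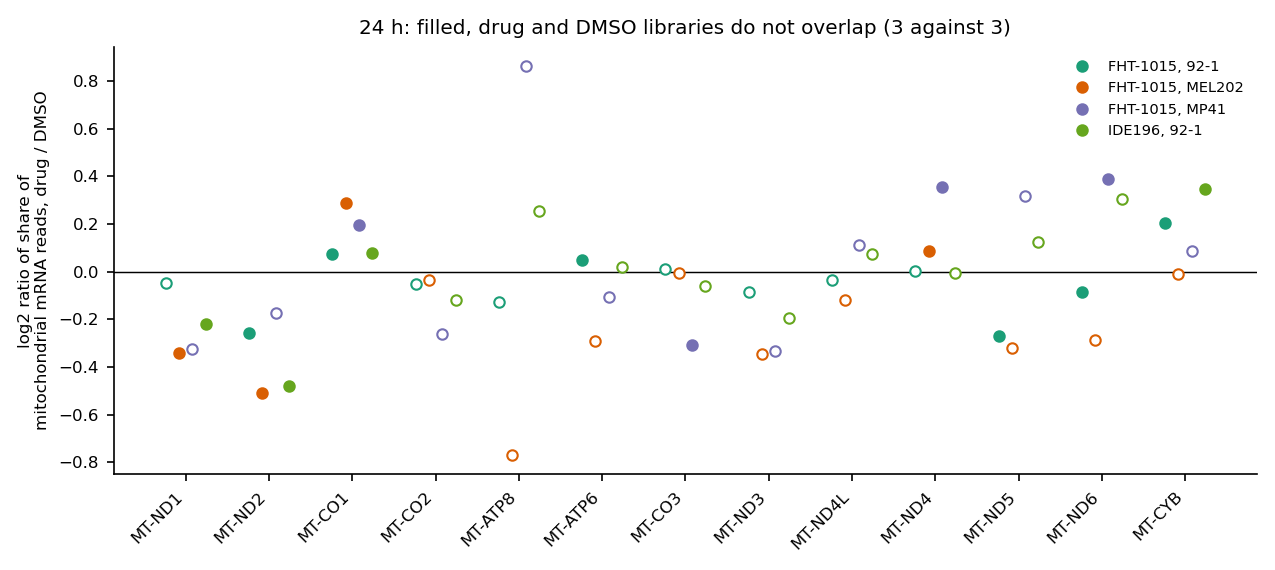
Log2 ratio, drug over DMSO at 24 h, of each gene's share of mitochondrial mRNA reads; filled symbols mark groups of 3 libraries that do not overlap. MT-CO1 is filled and above 0 in all 4 comparisons, and MT-ND2 is filled and below 0 in 3 of them.

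The nuclear genes that serve the mitochondrial genome were taken as lists and described by counts and medians at 24 h. Of all genes tested, 29.2% rose and 31.4% fell in 92-1 with FHT-1015, 8.69% and 10.1% in MEL202, 17.4% and 18.7% in MP41, and 28.7% and 29.4% with IDE196, and the counts of each list are to be read against these shares. Of 15 genes of mitochondrial transcription and its regulators, 2 rose and 8 fell in 92-1 with FHT-1015, 0 and 4 in MEL202, 2 and 5 in MP41, and 1 and 7 with IDE196. TFAM, which packs and starts transcription of the genome, stood at 78.5 CPM after FHT-1015 and 147 CPM after DMSO in 92-1 (means of 3, log2 fold change -0.91, SE 0.11, edgeR adjusted p = 3.10e-06). With IDE196 it stood at 78.8 against 122 CPM (log2 fold change -0.64, edgeR adjusted p = 2.21e-06). TFAM thus fell in the comparisons of 92-1 in which the mitochondrial mRNA share was higher in every drug library. In MEL202 TFAM had a log2 fold change of -0.91 and did not pass (edgeR adjusted p = 0.0517), and in MP41 one of -0.15 (edgeR adjusted p = 0.748).

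POLRMT, the polymerase, had a log2 fold change of 0.14 in 92-1 with FHT-1015 (edgeR adjusted p = 0.378) and fell with IDE196 (log2 fold change -0.33, edgeR adjusted p = 0.00518). PPARGC1B, a coactivator of mitochondrial gene programmes, fell with FHT-1015 in each line. Its mean was 13.1 against 160 CPM in 92-1 (log2 fold change -3.61), 3.01 against 40.6 CPM in MEL202 (-3.76) and 7.31 against 92.8 CPM in MP41 (-3.67). The edgeR adjusted p values were 1.13e-10, 0.000135 and 1.24e-07. Its relative PPARGC1A fell in 92-1 (log2 fold change -0.89) and MP41 (-2.42), and had a log2 fold change of -0.97 in MEL202 that did not pass (edgeR adjusted p = 0.0881). With IDE196 PPRC1, the third coactivator of this family, fell by 1.54 on the log2 scale, and PPARGC1A had a log2 fold change of 0.12 (edgeR adjusted p = 0.681).

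Genes of mitochondrial RNA processing gave these counts. Of 25 tested in 92-1 with FHT-1015, 0 rose and 20 fell (median log2 fold change -0.63, 31.4% of all genes fell), and of 24 with IDE196, 2 rose and 17 fell (-0.58, 29.4% of all genes fell). In MEL202 0 of 24 rose and 6 fell (10.1% of all genes fell), and in MP41 1 of 24 rose and 7 fell (18.7% of all genes fell). FASTKD2, which binds the large-subunit rRNA, had a mean of 28.7 against 68.2 CPM in 92-1 with FHT-1015 (log2 fold change -1.25, edgeR adjusted p = 1.79e-07). PNPT1, a subunit of the mitochondrial RNA-degrading complex, had one of 23.7 against 63.1 CPM with IDE196 (log2 fold change -1.41, edgeR adjusted p = 4.87e-10), and REXO2, which degrades short RNA, rose (1.22, edgeR adjusted p = 1.19e-05). LRPPRC, which stabilises most mitochondrial mRNAs, did not pass in any line with FHT-1015 (log2 fold change -0.15 for 92-1, -0.51 for MEL202 and 0.40 for MP41, edgeR adjusted p = 0.147, 0.194 and 0.297), and fell with IDE196 (-0.27, edgeR adjusted p = 0.0195).

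The nuclear partners of the mitochondrial proteins were counted in the same way. Of the nuclear subunits of complexes I, III, IV and V, 0 of 71 rose and 50 fell with IDE196 (median log2 fold change -0.60), where 29.4% of all genes fell. In 92-1 with FHT-1015 11 of 73 rose and 25 fell (-0.20), a share near the 31.4% of all genes that fell. In MP41 8 of 72 rose and 1 fell (0.22), against 17.4% and 18.7% of all genes, and in MEL202 0 of 71 rose and 2 fell, against 8.69% and 10.1%. ATP5MC1, which encodes the ring subunit of ATP synthase, had a mean of 33.5 CPM after IDE196 against 87.4 CPM after DMSO (log2 fold change -1.38, edgeR adjusted p = 1.09e-07), while the mitochondrial subunits of that complex, MT-ATP6 and MT-ATP8, rose in the same libraries. NDUFB5, a complex I subunit, rose in MP41 (log2 fold change 0.96, edgeR adjusted p = 0.000837).

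The proteins of the mitochondrial ribosome, which bind MT-RNR1 and MT-RNR2, had 5 of 77 higher and 41 lower in 92-1 with FHT-1015, 0 of 76 and 6 in MEL202, 4 of 77 and 10 in MP41, and 4 of 76 and 50 with IDE196. The shares of all genes that fell in these comparisons were 31.4%, 10.1%, 18.7% and 29.4%, so the counts in MEL202 and MP41 are not above them. Of 16 genes that copy and maintain mitochondrial DNA, 3 rose and 9 fell in 92-1, 1 and 4 in MEL202, 4 and 6 in MP41, and 1 and 10 with IDE196, against the same shares. TWNK, the mitochondrial helicase, was the one with the largest fall in MEL202 (log2 fold change -1.61, edgeR adjusted p = 0.000126).

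Copies of mitochondrial sequence in the nuclear genome can draw reads away from the members. The 417 rows named as such pseudogenes together held 0.00720% to 0.0739% of gene reads in a library. MTATP6P1 led with a mean of 3411 reads and MTCO1P12 followed with 1980. Reads that map to several places, 2.83% to 5.39% of all reads, are in no gene's count, so members with close nuclear copies may be undercounted by an amount not known here.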

How the data were processed

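RNA was measured by poly(A)-selected sequencing in 48 libraries, in 16 groups of 3 taken from the labels. The deposited counts are whole reads per gene in 3 columns (unstranded and each strand), and per the submitters' processing notes the build was hg38 and limma was used; the aligner and annotation release are not given in the sources used here. The unstranded column was used, since the strand columns took near-equal parts. Coordinates, lengths and sequences came from GENCODE 29 on GRCh38.

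Each experiment (3 lines with FHT-1015, 92-1 with IDE196) was fitted over its 12 libraries with edgeR 4.0.16 (R 4.3.3), with TMM scaling, its default filter on low counts, quasi-likelihood tests and Benjamini-Hochberg adjustment over all genes at 0.05. Lines were compared in 1 fit over 36 libraries, drugs in 1 over 24. Shares and the rRNA ratio used two-sided exact permutation tests of the difference of group means, on values that were not transformed. Reads per kilobase use the annotated gene length. The test was checked on simulated counts.

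The members and the gene lists were chosen with earlier results of these data known. The rRNA shares, the rRNA ratio and the shares of single genes within the mitochondrial mRNA were not planned in advance. Any protein-coding or rRNA member may be named, and tRNA members that pass the filter. Of each nuclear list, the called genes with the largest rise and the largest fall in a comparison may be named, with POLRMT, TFAM, PPARGC1A and LRPPRC, and of the pseudogene rows the 5 with the most reads; the text gives a selection.

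Alternatives were scaling by relative log expression, by library size alone or on nuclear genes only, no filter, DESeq2 1.42.0, limma-voom 3.58.1 always with sample quality weights, so that tool and weighting change together, the sum of the strand columns, fits of only the compared libraries, of all 48 libraries, with a replicate block, and leaving out each library. Same-numbered libraries of a line did not deviate together consistently: 7 of 18 pairs had a correlation above 0.1 (range -0.322 to 0.508).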

Additional observations from a re-analysis of the deposited data

Results flagged for a closer look

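The rRNA share of gene reads in the 6 DMSO libraries of MP41 had 1 library far from the others. The gap of the 2nd 24 h library, at 0.178%, to its nearest neighbour was 0.699 of the whole range, past the limit for 6 samples, which chance passes in about 1 of 20 groups. The 6 libraries pool 4 h and 24 h.

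Several drug effects differed by a test of the difference itself, with edgeR. In 92-1 the 24 h effect of FHT-1015 was unlike its 4 h effect for MT-RNR1 (adjusted p = 0.00470) and MT-TP (adjusted p = 0.00347), both lost with all 48 libraries in 1 fit. The same difference in time was found for MT-RNR2 in MP41 (adjusted p = 0.0425) and with IDE196 (adjusted p = 0.00206), and in MP41 it was lost when any 1 of 8 libraries was left out. The FHT-1015 effect at 24 h differed among the 3 lines for MT-RNR2 (adjusted p = 0.0375), a call lost when any 1 of 12 libraries was left out. The effects of IDE196 and FHT-1015 in 92-1 at 24 h differed for MT-RNR2 (adjusted p = 0.000199), MT-RNR1 (adjusted p = 0.0135), MT-ND5 (adjusted p = 0.0141) and MT-ND6 (adjusted p = 0.0301), of which MT-RNR2 was called in all 32 alternatives run and 1 of the 4 with all 48 libraries in 1 fit.

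The strand columns, whose sum served only as an alternative to the unstranded column, assigned reads to tRNA genes that the unstranded column did not assign to them. Over the 48 libraries MT-TS1 had 431742 reads in the 2 strand columns together and 0 in the unstranded column. MT-TQ had 12691, MT-TE 10519, MT-TW 2360, MT-TT 1856 and MT-TA 1223 against 0. MT-TY had 86204 against 26, and MT-TN 322 against 2. The summed strand columns also exceeded the unstranded column for MT-ND6 (1.62 times), MT-ND5 (1.19 times) and MT-CO1 (1.06 times). MT-TS1 (chrM:7446-7514, minus strand) lies directly beside MT-CO1, which is on the plus strand and ends at base 7445. Since the strand columns took near-equal parts of the reads, reads assigned to a tRNA gene may be those of a neighbouring gene. Whether any came from tRNA was not tested.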

How the results depend on the processing

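Numbers of called members moved by more than 1.5 times as follows. At 4 h, 92-1 with FHT-1015 went from 0 to 2 by library size alone and 4 with limma-voom with quality weights (0 to 2 with a library left out), and IDE196 from 0 to 1 with no filter (0 to 1). At 24 h, 92-1 went from 7 to 11 with voom with weights and 0 with all 48 libraries (4 to 8). MEL202 went from 0 to 7 with voom with weights and 1 with the compared libraries alone or all 48 (0 to 1). MP41 went from 7 to 14 with no filter, 4 with voom with weights and 2 with the compared libraries alone (2 to 10; 2 without the 1st and 3 without the 2nd FHT-1015 library). IDE196 went from 9 to 14 with no filter and 4 with all 48 (6 to 11). For 24 h against 4 h, 92-1 went from 2 to 4 with voom with weights or the strand columns and 0 with all 48 (2 to 3). MEL202 went from 0 to 1 with voom with weights. MP41 went from 1 to 9 with no filter, 3 with voom with weights and 6 with all 48 (0 to 5). IDE196 went from 1 to 2 by library size, 9 with no filter and 3 with voom with weights (1 to 5). Among lines at 24 h, 1 became 8 with no filter, 3 with voom with weights and 2 with DESeq2, the strand columns or all 48 (0 to 3). Between drugs at 24 h, 4 became 1 with all 48 (1 to 5; 1 without the 6th DMSO library of 24 h, 2 without the 3rd IDE196 library). The log2 ratio of mRNA shares, MEL202 over 92-1 in DMSO, moved from -0.78 to -0.52 with all 37 genes counted. The causes were not tested.

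The ratio of MT-RNR2 to MT-RNR1 kept its direction under every alternative run at 24 h. With the replicate number as a block, 92-1 had 7 and MP41 8 calls at 24 h, and no number moved by over 1.5 times. No paired analysis was possible for IDE196 because it shares no replicate numbers with its DMSO set. At 4 h the mRNA share changed direction in 7 of 11 alternatives in MEL202 (5 other ways of counting the share, and the 2nd FHT-1015 or the 3rd DMSO library left out; log2 ratio -0.24 to 0.13 with a library left out). It did so in 3 of 11 in MP41 and 2 of 11 with IDE196, all with a library left out. Depth limits MT-ATP8 most, at 8 reads in its lowest library.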
